A study of Mus musculus with 10 samples.

Results

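The question was which genes answered rosiglitazone differently in colonic organoids with and without PPARγ. The quantity described is the interaction: the difference between rosiglitazone and vehicle in knockout organoids minus the same difference in wild-type organoids, on the log2 scale. It was computed from all 10 arrays of the series, and again from the 8 arrays whose mouse gave organoids to both treatments. A positive interaction means that the knockout response was the higher one, and a value of 1 stands for a 2-fold difference between the responses.

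Organoids are epithelial cultures grown from crypt stem cells, here from the colon of male mice on a C57BL/6J background. Knockout mice were homozygous for Pparg with loxP sites around exons 1 and 2 and carried Cre under the villin promoter, which is active in intestinal epithelium, and wild-type littermates were the controls. Cultures received 1 µM rosiglitazone or 0.1% DMSO as vehicle for 24 h, in a medium with Wnt, Noggin, R-spondin and EGF that all groups shared. Wild-type mice 42 and 47 and knockout mice 44 and 46 gave an array of each treatment. Wild-type mouse 48 and knockout mouse 45 gave a rosiglitazone array and no vehicle array, so the groups held 2 vehicle and 3 rosiglitazone arrays per genotype. Each array is 1 culture of 1 mouse, so a mouse is the replicate.

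PPARγ is a nuclear receptor that binds DNA as a partner of RXR and is activated by fatty acids and by thiazolidinediones such as rosiglitazone. Its textbook targets act in lipid droplet storage, fatty acid oxidation and the switch from glucose to fat as fuel. In the colon it is most abundant in the differentiated cells near the lumen, which also carry the sodium transporters and the guanylin peptides of the surface epithelium.

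The half-site that PPAR and RXR each recognise is AGGTCA. The sequences are the 250 bases before the transcription start of a gene of each main response type, from RefSeq promoters of GRCm38.p6, with any AGGTCA on either strand (TGACCT when read on the other) in capitals. Plin2 responded in wild type, Krt20 in the knockout, and Slc9a3 in opposite directions. No rule picked these genes, and Plin2 and Krt20 do not have the largest interaction of their type. The windows are chr4:86670060-86670309 for Plin2 (minus strand), chr11:99438154-99438403 for Krt20 (minus strand) and chr13:74121163-74121412 for Slc9a3 (plus strand).
Plin2: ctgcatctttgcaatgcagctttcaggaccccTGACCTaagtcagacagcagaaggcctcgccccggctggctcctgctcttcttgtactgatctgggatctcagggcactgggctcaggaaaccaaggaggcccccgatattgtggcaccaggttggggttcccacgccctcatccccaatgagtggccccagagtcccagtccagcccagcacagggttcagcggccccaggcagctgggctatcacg
Krt20: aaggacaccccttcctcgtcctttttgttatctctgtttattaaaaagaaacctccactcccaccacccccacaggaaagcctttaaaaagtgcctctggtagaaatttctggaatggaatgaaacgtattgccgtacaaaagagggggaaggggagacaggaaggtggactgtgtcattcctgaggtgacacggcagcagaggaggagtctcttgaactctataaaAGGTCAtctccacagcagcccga
Slc9a3: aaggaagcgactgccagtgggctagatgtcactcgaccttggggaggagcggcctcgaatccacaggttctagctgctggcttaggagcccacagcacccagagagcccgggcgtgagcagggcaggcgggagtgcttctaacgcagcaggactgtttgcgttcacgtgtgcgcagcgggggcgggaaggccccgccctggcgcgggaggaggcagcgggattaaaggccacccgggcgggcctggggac
These letters were in the window of 14.0% of the 32851 promoters listed. Among the 58 genes whose interaction was followed, 52 were counted, and 6 of these (11.5%) had the letters. The 52 leave out genes without an entry and any on a single chromosome that the 14.0% keeps, so the sets are not alike. A match is a description of the letters and not a bound site, and these examples link no response type to the letters.

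Epithelial markers were high on the arrays and markers of other tissues mostly low. Of 14 epithelial identity genes 11 lay above the median level of the tested probe sets, 4.51, with Krt8 highest at 12.44, while 0 of 10 endothelial and 0 of 6 neuronal genes did. Of fibroblast genes 1 of 13 (Fbln1) lay above it, of smooth muscle genes 1 of 9 (Mylk), of immune genes 2 of 15 (Cd14 and Cd68) and of adipocyte genes 2 of 9 (Cidec and Lipe). Of 16 small intestine genes 5 did (Alpi, Apob, Mttp, Mgam and Slc5a1), with Mgam at 10.01. The mean level of the epithelial list ran from 7.98 to 8.12 in knockout vehicle and from 8.00 to 8.67 in knockout rosiglitazone. In wild type it ran from 8.27 to 8.29 in vehicle and from 8.06 to 8.26 in rosiglitazone. The goblet cell list ran more widely, from 3.81 to 5.32 over the 5 knockout arrays and from 4.04 to 4.47 over the 5 wild-type arrays. Arrays of a group correlated at 0.986 to 0.991 in the knockout and at 0.992 to 0.996 in wild type. The 2 arrays without a partner did not always lie on the side of their genotype. In 19 genes the paired wild-type and knockout arrays lay more than 1 apart, and there mouse 45 fell on the knockout side in 15 and mouse 48 on the wild-type side in 11. Both were on the side of their label in 10 genes and both on the other side in 3. These genes were picked by the paired arrays alone and can include differences between mice, so this does not test the labels. The single-gene values are therefore given over the 8 paired arrays first. The part of cell composition in the gene results was not tested, and fewer cells of a type cannot be told apart from less RNA per cell.

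No single gene passed correction in the main fits. Over all 10 arrays 0 of 23099 probe sets (0.0%) reached an adjusted p of 0.05 for the interaction (limma with Benjamini-Hochberg adjustment), and 536 (2.32%) had an unadjusted p under 0.05. Over the 8 arrays with the mouse as a block, 0 passed (0.0%, lowest adjusted p 0.502) and 1175 (5.09%) had an unadjusted p under 0.05, where 1155 are expected by chance if no gene differs. Of these, 573 were positive and 602 negative, or 639 and 437 with each array centred on its median. Over 10 arrays 209 were positive and 327 negative, or 292 and 227 after repeated quantile normalization. An alternative variance prior that depends on the signal called 10 probe sets over the 8 arrays (0.0433%). They were Slc9a3, Guca2a, Cyp2d26, Oit1, Clec2h, Tgfbi, Slc5a8 and Cyp4f14 with a positive interaction, and Pdk4 and 4931406C07Rik with a negative one. The last is a predicted gene model, named after its values were seen. The same prior called 34 probe sets (0.147%) for the wild-type response, 23 higher and 11 lower with the drug, and 2 (0.00866%) for the knockout response, Slc9a3 and Apol10a, both higher. The main fit called 0 (0.0%) for either response, with 889 (3.85%) in wild type and 1729 (7.49%) in the knockout at an unadjusted p under 0.05. Single mice weighed on these counts: without mouse 42, 44, 46 or 47 the 8-array count at an unadjusted p under 0.05 was 722, 2757, 2549 or 459, with 0 called each time. With a mouse left out, the response of its genotype rests on a single mouse, and the residual spread comes from the pair of the other genotype. The calls of these fits for the response in each genotype varied and are not read. The 10-array count ran from 280 without the vehicle array of mouse 47 to 1175 without that of mouse 44. It was 338 without the vehicle array of mouse 42, and 818 and 823 without the rosiglitazone or the vehicle array of mouse 46. Differences of single genes are therefore given as measured sizes, with "higher" or "lower" describing the arrays.

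Few genes had a clean pattern over the 4 paired mice, and the knockout mice parted in more genes than the wild-type mice did. A response counted where both mice of a genotype differed by at least 0.5 in the same direction, and no response where both stayed within 0.25 of 0. Of 18820 genes, 87 (0.462%) met the first limit in the same direction in both wild-type mice and 12 (0.0638%) in opposite directions. In the knockout the numbers were 86 (0.457%) and 100 (0.531%), but among genes above the median level the knockout mice agreed in 31 and parted in 23, and with limits of 0.8 and 0.4 in 6 and 6. In wild type those numbers were 46 and 4, and 24 and 0. Wild-type-only genes numbered 17 higher (0.0903%) and 8 lower (0.0425%), and knockout-only genes 17 higher (0.0903%) and 15 lower (0.0797%). Opposite responses, with at least 0.25 in all 4 mice, were seen in 24 genes that were lower in wild type and higher in the knockout (0.128%) and in 12 of the converse (0.0638%). Responses of at least 0.5 shared by all 4 mice numbered 0 higher (0.0%) and 1 lower (0.00531%). Genes were placed in these patterns by these same differences, so their sizes are a description and not independent evidence.

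**Figure D1:**
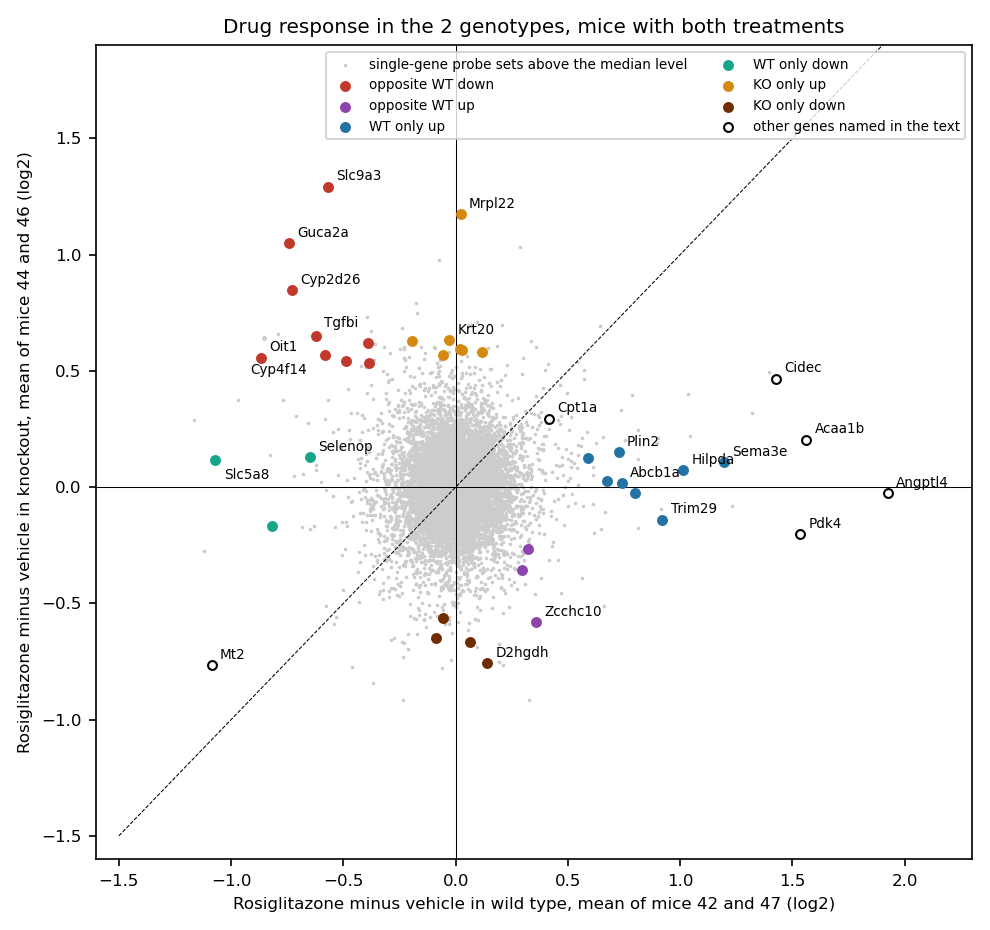
Rosiglitazone minus vehicle in wild type (x axis) against knockout (y axis), each the mean of 2 mice on the log2 scale. Grey points are probe sets of single genes above the median level, coloured points are named genes of each pattern, open circles are other named genes, and the dashed line marks equal responses. Slc9a3 and Guca2a lie at the upper left, PPAR targets such as Angptl4 and Pdk4 at the right near 0 in the knockout, and Cpt1a and Mt2 close to the dashed line.

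Pparg itself was measured first as a check of the labels, and its probe set did not separate the genotypes. It read 8.35 and 8.41 in wild-type vehicle (mice 42 and 47) and 8.47 and 8.58 in knockout vehicle (mice 44 and 46). Where its probes lie relative to the deleted exons is not stated in the labels or the annotation, so its level checks nothing about the deletion. Under rosiglitazone the wild-type arrays of mice 42, 47 and 48 read 7.59, 7.93 and 8.30, and those of knockout mice 44, 46 and 45 read 8.41, 8.78 and 7.37. Both paired wild-type mice were thus lower with the drug (-0.75 and -0.49), and the knockout pairs lay at -0.05 and 0.20. The interaction was 0.69 (SE 0.19, adjusted p = 0.957 by limma) over 8 arrays and 0.10 (SE 0.49) over 10, where the low array of mouse 45 and the high array of mouse 48 enter.

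Over the paired mice, several PPAR targets of lipid storage and fuel choice were higher with the drug in wild type and not in the knockout. Angptl4, a secreted inhibitor of lipoprotein lipase, read 3.44 in vehicle and 4.88 in rosiglitazone for mouse 42, and 3.52 and 5.93 for mouse 47. In the knockout it went from 3.50 to 3.31 in mouse 44 and from 2.92 to 3.06 in mouse 46. These 2 treated wild-type arrays lay above every paired knockout array and every vehicle array, but the treated array of wild-type mouse 48 read 2.89 and that of knockout mouse 45 read 4.79. The interaction was -1.95 (SE 0.32, adjusted p = 0.753 by limma) over 8 arrays, a wild-type response 3.87-fold that of the knockout. Over 10 arrays it was -0.57 (SE 1.05), and from -1.41 to 0.11 with an array left out. Pdk4, the kinase that shuts off pyruvate dehydrogenase when fat is burned, went from 2.45 to 3.80 in wild-type mouse 42 and from 2.54 to 4.26 in mouse 47. Its knockout readings were 2.79 and 2.63 in mouse 44 and 2.43 and 2.19 in mouse 46. These and the wild-type vehicle readings lie at the level of genes of absent cell types, such as the endothelial list with a median level of 2.38, so no direction is read from the knockout and the size of the interaction is uncertain. Pdk4 had an interaction of -1.74 (SE 0.19), with an adjusted p of 0.502 in the main limma fit and 0.0283 with the signal-dependent prior. Both genes have mean levels under the median level, 3.82 and 2.78.

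Some droplet and lipase genes above the median level were also higher mainly in wild type. Hilpda, a droplet protein that inhibits triglyceride lipase, went from 5.94 to 6.97 in mouse 42 and from 5.73 to 6.73 in mouse 47. In the knockout it went from 5.34 to 5.39 and from 5.64 to 5.74, with an interaction of -0.94 (SE 0.16, adjusted p = 0.753 by limma). Plin2, the coat protein of droplets in most cells and the promoter with the reversed half-site above, read 8.00 and 8.14 in wild-type vehicle and 8.75 and 8.84 with the drug. Its knockout readings were 7.46 and 7.61 against 7.66 and 7.71. The 2 knockout mice thus kept a small positive difference, 0.20 and 0.10, beside 0.75 and 0.71 in wild type. The interaction of Plin2 was -0.57 (SE 0.16). Cidec, which fuses droplets, was less clear-cut: it differed by 1.30 and 1.55 in wild type, by 0.02 in mouse 44 and by 0.91 in mouse 46. Lipa, the lysosomal acid lipase, differed by 0.54 and 0.80 in wild type and by 0.11 and -0.06 in the knockout.

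Other wild-type-only genes lie outside lipid storage. Sema3e, a secreted guidance factor, had the largest interaction of the named genes in this pattern, -1.09 (SE 0.21), going from 5.76 to 6.73 in mouse 42 and from 5.58 to 7.00 in mouse 47. In mouse 44 it stayed at 5.86, and in mouse 46 it went from 5.02 to 5.24. Trim29, of the tripartite motif family, differed by 1.01 and 0.83 in wild type and by -0.13 and -0.15 in the knockout. Abcb1a, the drug efflux pump P-glycoprotein, differed by 0.59 and 0.89 against 0.01 and 0.02, from a high level of 8.83 to 9.06 in wild-type vehicle. Arl14, a small GTPase, completed the named set with 0.63 and 0.56 against 0.22 and 0.03. Close to the pattern were Sgk2, a kinase of the SGK family (1.09 and 1.38 against 0.12 and -0.28), and the carbonyl reductase gene Cbr2 (0.99 and 1.02 against -0.08 and -0.41). Nlrp6, an innate sensor of the colonic epithelium, differed by 0.81 and 0.99 in wild type and by 0.31 and 0.11 in the knockout.

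Across the list of 42 PPAR target genes, 9 had a negative interaction at an unadjusted p under 0.05 over 8 arrays and 1, Gpd1, a positive one. That is 23.8% of the list beside 5.09% of all 18820 genes, of which 2.66% were negative and 2.43% positive at that limit, and 0 passed after adjustment. The lists were written with earlier results of these data known, so their shares are a description and not independent evidence. The 9 were Acaa1b, Acot2, Angptl4, Cidec, Hadhb, Hilpda, Pdk4, Pex11a and Plin2. Acaa1b, a peroxisomal thiolase, had an interaction of -1.36 (SE 0.33). Its knockout mice parted, at -0.20 in mouse 44 and 0.61 in mouse 46, and its mean level of 3.56 lies under the median level. Acot2, a mitochondrial acyl-CoA thioesterase, had an interaction of -0.99 (SE 0.18). Pex11a, which drives peroxisome division, stood at -0.51 (SE 0.20). Outside the list, Acox2, a peroxisomal oxidase of branched fatty and bile acids, had an interaction of -0.43 (SE 0.17) and the mitochondrial thiolase Acaa2 one of -0.46 (SE 0.20). The median over the list was -0.11, beside -0.01 over all genes, and 19 of the members lie above the median level. In the droplet and triglyceride list of 35 genes, 6 were negative at that limit (Cidec, Dgat2, G0s2, Hilpda, Plin2 and Angptl4) and 0 positive, with a list median of -0.05. Cidec, Hilpda, Plin2 and Angptl4 are counted in both lists. Over 10 arrays 1 gene of each list had an unadjusted p under 0.05, Acaa1b and G0s2, both negative, beside 2.38% of all genes, 1.46% of them negative.

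Cpt1a and Mt2 differed in the same direction in both genotypes. Cpt1a, the carnitine acyltransferase that admits fatty acids to mitochondria, was higher with the drug in all 4 paired mice, by 0.39 and 0.45 in wild type and by 0.24 and 0.35 in the knockout. Its interaction was -0.12 with a 95% confidence interval from -0.51 to 0.27, so a difference of up to about 0.51 between the genotypes fits within the error. Mt2, a zinc-binding metallothionein outside the PPAR target list, was lower in all 4 mice, at -0.90 and -1.27 in wild type and -0.50 and -1.03 in the knockout, with an interaction of 0.32 (interval -0.25 to 0.90).

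**Figure D2:**
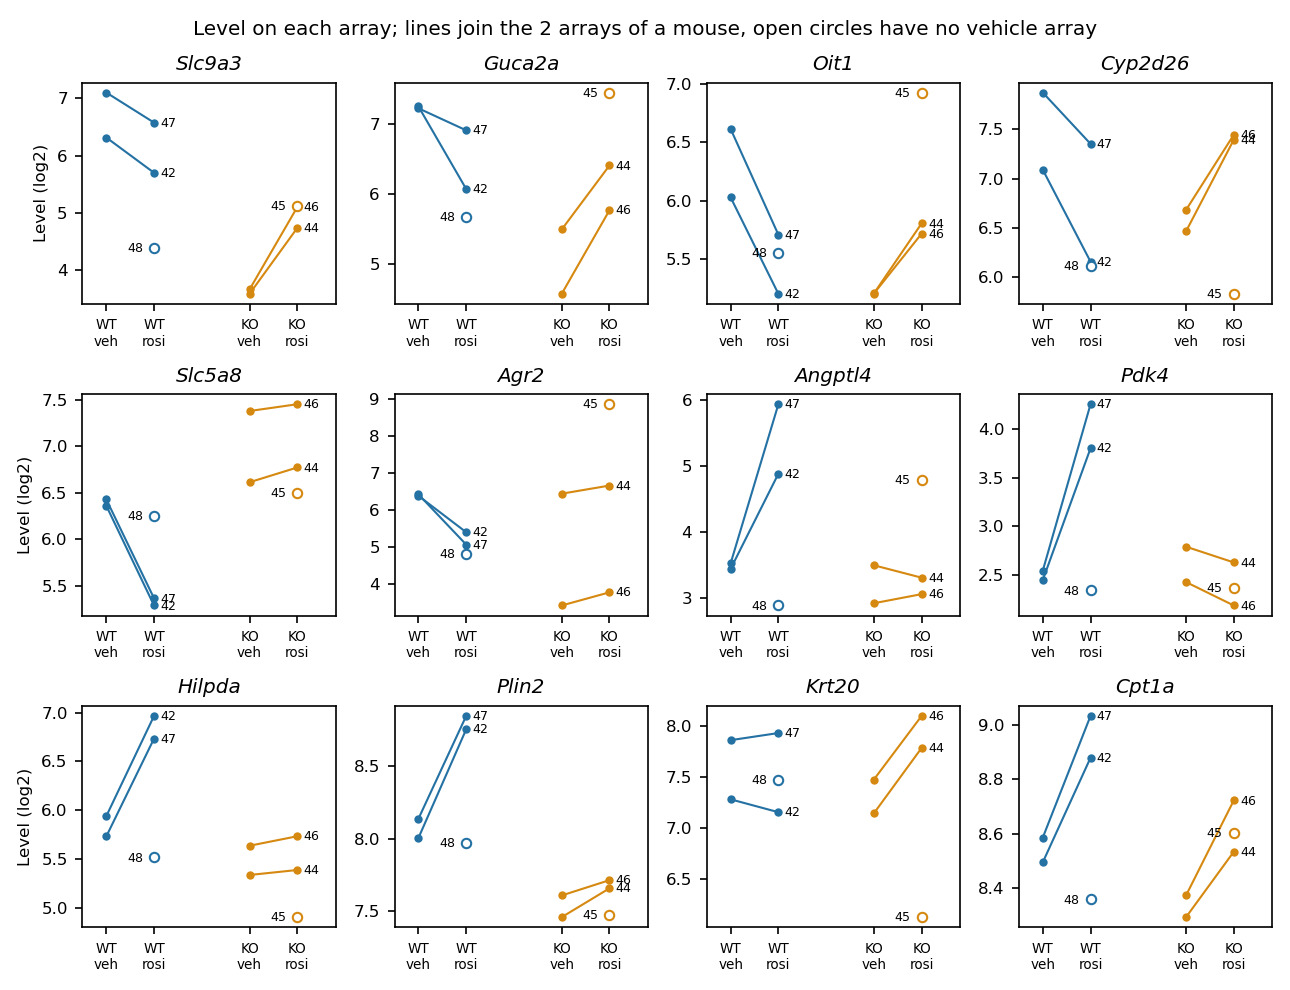
RMA level (log2) of 12 genes on every array, by genotype and treatment. Lines join the vehicle and rosiglitazone arrays of one mouse, open circles are the rosiglitazone arrays of mice 48 and 45, and each panel has its own axis. Lines of Slc9a3 slope down in wild type and up in the knockout, those of Angptl4, Pdk4, Hilpda and Plin2 climb in wild type, and mouse 48 lies low in these 4 panels.

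The largest interactions of the opposite pattern among the named genes were those of Slc9a3 and Guca2a. Slc9a3, the apical sodium-hydrogen exchanger of absorptive cells, read 6.32 in vehicle and 5.70 in rosiglitazone for mouse 42, and 7.10 and 6.58 for mouse 47. In the knockout it read 3.59 and 4.74 for mouse 44, and 3.67 and 5.10 for mouse 46. All knockout arrays lay below the paired wild-type arrays, and the drug difference narrowed the gap from both sides. The interaction was 1.86 (SE 0.18), 3.64-fold, with an adjusted p of 0.502 in the main limma fit and 0.0128 with the signal-dependent prior. An exact permutation of the 4 mice between the genotypes gives p = 0.333, which is the smallest that 2 mice against 2 allow. Guca2a, which encodes guanylin, the peptide that drives fluid secretion through guanylate cyclase C, went from 7.25 to 6.07 in mouse 42 and from 7.22 to 6.91 in mouse 47. In the knockout it went from 5.50 to 6.41 in mouse 44 and from 4.58 to 5.77 in mouse 46. The interaction was 1.79 (SE 0.30), and the size of the wild-type difference varied between the mice, -1.17 in mouse 42 and -0.31 in mouse 47.

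Other named genes of varied function showed the same crossing over the paired mice. Cyp2d26, a cytochrome P450, read 7.09 and 7.88 in wild-type vehicle against 6.16 and 7.35 in rosiglitazone, and 6.47 and 6.68 in knockout vehicle against 7.40 and 7.45. Its interaction was 1.57 (SE 0.20), with an adjusted p of 0.00884 under the signal-dependent prior. Cyp4f14, a P450 of fatty acid and eicosanoid hydroxylation, differed by -0.70 and -0.46 in wild type and by 0.86 and 0.28 in the knockout. Dpep1, a membrane dipeptidase, had differences of -0.34 and -0.44 against 0.89 and 0.35. Oit1, a secreted protein of the gut also called Fam3d, stood at -0.83 and -0.91 against 0.60 and 0.51, with an interaction of 1.42 (SE 0.16). The matrix protein gene Tgfbi, an induced target of TGF-β, differed by -0.55 and -0.69 in wild type and by 0.73 and 0.57 in the knockout. Rrm2b, a ribonucleotide reductase subunit of the DNA damage response, had an interaction of 1.03 (SE 0.22). The glucose transporter gene Slc5a1 lay at -0.49 and -0.28 against 0.31 and 0.76.

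A smaller group was lower with the drug in wild type and near its vehicle level in the knockout. Slc5a8, the sodium-coupled carrier of butyrate and other short-chain fatty acids, went from 6.36 to 5.29 in mouse 42 and from 6.43 to 5.36 in mouse 47. Its knockout levels went from 6.61 to 6.77 in mouse 44 and from 7.38 to 7.45 in mouse 46. The wild-type mice agreed closely, at -1.07 and -1.06, and the interaction was 1.19 (SE 0.16). Selenop, a selenium carrier, differed by -0.66 and -0.64 against 0.04 and 0.21. Clca3b, of the CLCA family, lay at -0.83 and -0.81 against -0.15 and -0.18. Further genes paired a larger wild-type difference with a smaller knockout difference of the other sign. Agr2, the disulfide isomerase that folds mucins, had -0.98 and -1.35 in wild type and 0.22 and 0.35 in the knockout. Its knockout levels went from 6.43 to 6.65 in mouse 44 and from 3.42 to 3.77, under the median level, in mouse 46. Clec2h, a C-type lectin, had -1.08 and -0.86 against 0.50 and 0.25. Krt23, a keratin, stood at -0.59 and -0.73 against 0.35 and 0.20.

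In the list of 44 differentiated colonocyte genes, 8 had a positive interaction at an unadjusted p under 0.05 over 8 arrays and 3 a negative one, 25.0% of the list beside 5.09% of all genes, with 0 after adjustment. This list too was written with earlier results of these data known, so the share is a description. The 8 were Clca4a, Dpep1, Guca2a, Krt20, Slc26a3, Slc5a8, Slc9a3 and Tmigd1, and the 3 were Cyp2c55, Hsd3b3 and Nlrp6. Thus 24 members were positive and 20 negative, and the list median was 0.05. Cyp2c55, a P450 of the colon, ran against the others at 0.33 and 0.63 in wild type and -0.19 and -0.86 in the knockout. Drug and xenobiotic metabolism was divided in the same way: of 53 genes 8 were positive and 5 negative at that limit, and the list median was 0.02. Of 31 goblet cell genes 3 were positive (Agr2, Clca1 and Muc2) and 0 negative, and of 33 defence genes 6 were positive and 2 negative. Over 10 arrays 2 of the colonocyte genes (4.55%), Guca2a and Slc9a3, reached that limit, beside 2.38% of all genes. So did 0 of the goblet genes, 1 of the defence genes (3.03%) and 3 of the xenobiotic genes (5.66%). Pigr, the receptor that carries IgA across the epithelium, was among the 6 defence genes over 8 arrays, with -0.15 and -0.34 against 0.63 and 0.56. Muc2, the main colonic mucin, differed by -0.12 and -0.35 against 0.99 and 0.22. In mouse 46 it read 3.71 in vehicle and 3.92 in rosiglitazone, both under the median level.

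The knockout-only genes were of varied function. Krt20, a keratin of differentiated surface cells and the promoter with the half-site next to its start, went from 7.14 to 7.78 in mouse 44 and from 7.47 to 8.10 in mouse 46. In wild type it went from 7.28 to 7.15 and from 7.86 to 7.93, and the interaction was 0.66 (SE 0.17). Tmigd1, an immunoglobulin-domain protein of the brush border, differed by 0.75 and 0.51 in the knockout and by -0.25 and -0.14 in wild type. Mrpl22, a protein of the mitochondrial ribosome, had the largest value among the 7 of these 17 genes above the median level, 1.15 (SE 0.31), and unequal knockout mice at 0.70 and 1.65. Mad2l1bp of the spindle checkpoint, Plcxd2, Oas1c of the oligoadenylate synthetase family and Taf11, a subunit of the general factor TFIID, had interactions of 0.63, 0.57, 0.56 and 0.46. Genes lower in the knockout alone were D2hgdh, the D-2-hydroxyglutarate dehydrogenase (-0.90), Mtfr2, a mitochondrial fission regulator (-0.73), Cbs, which makes cystathionine (-0.56), and Mcm9, a helicase of DNA repair (-0.51). The opposite pattern with wild type higher held Zcchc10 (-0.94), the nucleoside transporter gene Slc29a2 (-0.65) and Pkhd1, which encodes fibrocystin (-0.59).

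Energy metabolism and cell cycle lists held few genes with an interaction. Of 56 oxidative phosphorylation genes 0 had an unadjusted p under 0.05 over 8 arrays, 26 were positive (46.4%, beside 49.0% of all genes), and the median was -0.004. Of 33 glycolysis and hypoxia genes 1, Ndrg1, reached that limit with -0.65 (SE 0.22), and the median was -0.04. Slc2a1, the basal glucose carrier, differed by 0.24 and 0.38 in wild type and by 0.00 and -0.03 in the knockout. Of 38 replication and cell cycle genes 0 reached the limit in either direction. Of 14 keratin genes 3 reached it (21.4%), of 16 small intestine genes 3 (18.8%) and of 14 colonic identity genes 2 (14.3%). The share over all genes was 5.09%. In the keratin and small intestine lists 2 were positive and 1 negative, and in the identity list both were positive. Krt20, Slc26a3 and Muc2 were counted in lists above as well. The 29 crypt stem cell and Wnt target genes had a median of -0.12 with 20 negative. Of these, 2 were at the limit (6.9% of the list, near the share of all genes). Ascl2, a stem cell regulator, had an interaction of -0.55 (SE 0.22). The interferon and antigen presentation list of 48 genes held 25 positive and 23 negative. Of these, 3 reached the limit (6.25%, near the share of all genes), all positive. Psmb9 and Oas1a were among the 3, at 0.47 and 0.51, while the lowest named members, H2-DMa and H2-Ab1, both lay at -0.28.

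**Figure D3:**
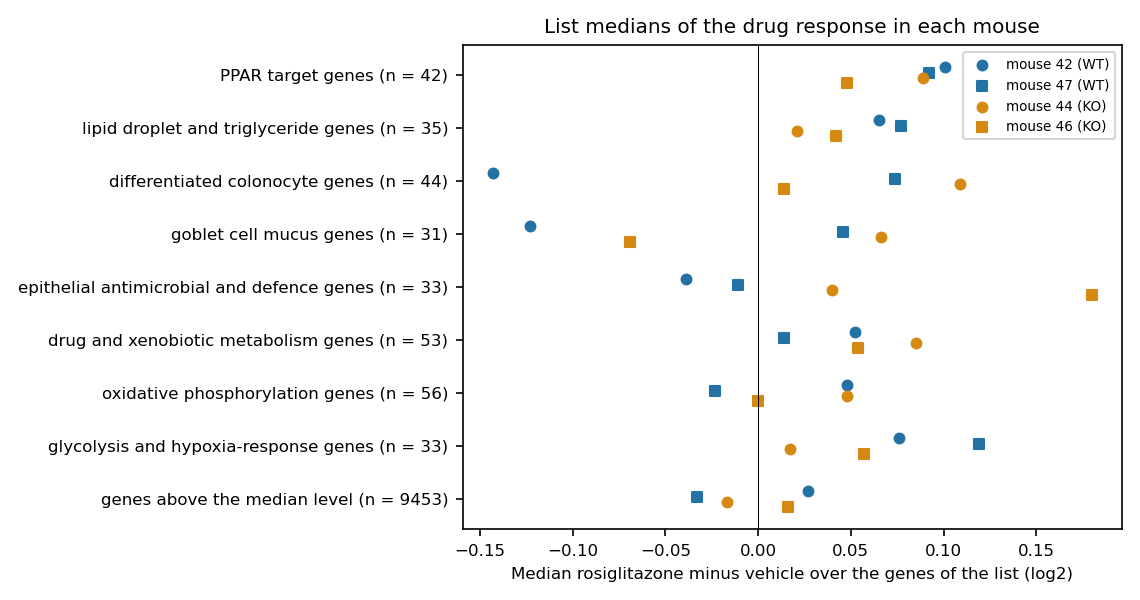
Median rosiglitazone minus vehicle (log2) over the genes of 8 functional lists, and over all 9453 genes above the median level, in each of the 4 paired mice. Blue is wild type, orange is knockout, and shapes tell the 2 mice of a genotype apart. Medians stay between -0.15 and 0.20, and in the colonocyte, goblet and oxidative phosphorylation lists the genotypes overlap. In the PPAR target list they lie side by side, at 0.101 and 0.092 in wild type and 0.089 and 0.048 in the knockout.

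The estimate over all 10 arrays adds only the rosiglitazone arrays of mice 48 and 45, which have no vehicle array of their own. For several genes higher in paired wild-type mice, mouse 48 read below vehicle level. Its array read 2.89 for Angptl4, 2.34 for Pdk4, 5.52 for Hilpda, 7.97 for Plin2 and 5.52 for Sema3e. For each of these 5 genes, and at 8.36 for Cpt1a, it lay below both vehicle arrays of mice 42 and 47. Over the 7 named wild-type-only genes, mouse 48 lay below both vehicle arrays for 4, between them for 2 and above them for 1, Arl14 (6.37). Of the genes lower in wild type and higher in the knockout, 12 have a level above the median and are no predicted models. Mouse 48 lay below both wild-type vehicle arrays in 11 of these and between them in 1. It also lay below both in 4 of 7 knockout-only higher and 3 of 4 knockout-only lower genes, where the paired wild-type mice stayed near 0. Over the same 12 genes, mouse 45 lay above both knockout vehicle arrays in 6, below both in 3 and between them in 3. A response of mouse 48 cannot be told apart from its own baseline.

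Mouse 45 was just as uneven. Its rosiglitazone array read 7.45 for Guca2a, 6.93 for Oit1 and 8.85 for Agr2, above every other knockout array, and 5.83 for Cyp2d26, 5.56 for Tgfbi and 6.12 for Krt20, below every other knockout array. It read 4.79 for Angptl4, where the other knockout arrays lay between 2.92 and 3.50. With both unpaired arrays, the wild-type response of Angptl4 was 1.08 over 10 arrays beside 1.93 over 8, and the knockout response 0.51 beside -0.03. Slc9a3 and Guca2a were larger over 10 arrays, at 2.51 (SE 0.69) and 2.52 (SE 0.67), with an adjusted p of 1 in limma for both. Oit1 and Slc5a1 were also larger, at 1.78 (SE 0.47) and 1.24 (SE 0.76). Smaller over 10 arrays were Cyp2d26 at 1.26 (SE 0.71), Tgfbi at 0.64 (SE 0.87) and Cyp4f14 at 0.79 (SE 0.67). So were Dpep1 at 0.87 (SE 0.87) and Rrm2b at 0.85 (SE 0.34). The 10-array knockout responses of Cyp2d26, Tgfbi, Cyp4f14 and Dpep1 were 0.32, -0.05, 0.15 and 0.01. The 10-array fit has no block, so differences between mice enter its standard errors.

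Between the estimates 85 genes had an interaction of at least 1 in size over 10 arrays and 46 over 8, and 19 were in both, all in the same direction. That is 22.4% of the first set and 41.3% of the second. In 13 genes the value was at least 1 over 10 arrays and under 0.25 over 8, so it rests on mice 45 and 48 alone; the converse held for 0 genes. Examples, named after their values were seen, are Dmbt1, a secreted defence glycoprotein, with 1.85 over 10 arrays and -0.13 over 8, and Cyba, a subunit of NADPH oxidase, with 1.60 and -0.20. Dmbt1 read 7.73 in mouse 45 and from 4.08 to 4.71 in the other knockout arrays, and 5.14 in mouse 48 and from 7.70 to 7.95 in the other wild-type arrays. In both genes each unpaired array stood nearer the level of the other genotype.

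**Figure D4:**
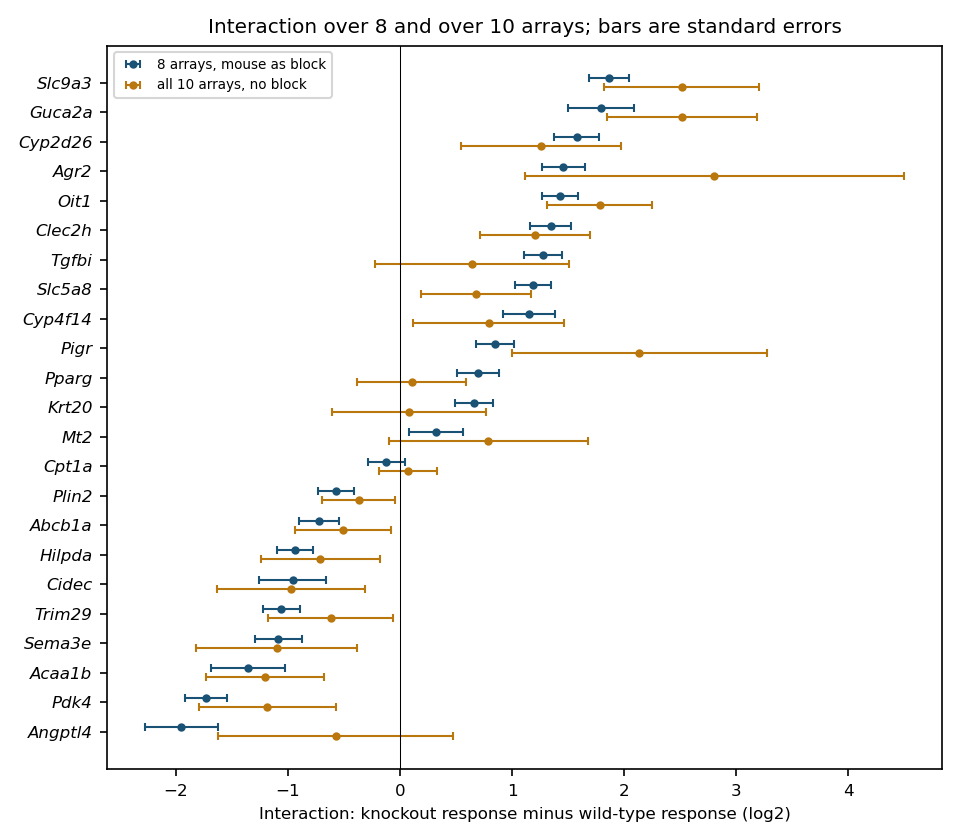
Interaction (knockout response minus wild-type response, log2) of 23 named genes over 8 arrays with the mouse as a block (blue) and over all 10 arrays without one (orange), with standard errors as bars. The 8-array values have the shorter bars, and Angptl4, Pparg and Krt20 move most of the way to 0 over 10 arrays while Agr2 and Pigr move away from it.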

How the data were processed

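The data were 10 Affymetrix whole-transcript arrays. The deposited table holds log2 expression values for 35556 probe sets, made with RMA per the submitters' processing notes; its version and chip definition are not given in the sources used here. Values of the tested probe sets ran from 0.95 to 13.55, and array medians over all probe sets from 3.54 to 3.72. Arrays give no read depth, so their number limits the precision. The 23099 probe sets that the platform annotation lists were tested, and 12457 others were left out. A single symbol was given for 21218 and several for 1881, and 21185 of the single-symbol probe sets matched RefSeq. A gene (18820 in all) was represented by its probe set with the highest mean. RMA equalises the distributions of the arrays, so a change common to most genes would not be seen.

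The interaction was fitted with limma 3.58.1 (R 4.3.3) as a contrast of 4 group means over 10 arrays (residual degrees of freedom 6), and over 8 arrays with the mouse as a fixed block (residual degrees of freedom 2), with eBayes, two-sided, and Benjamini-Hochberg adjustment over all probe sets at 0.05. The script was tested on simulated data. The labels name the donor mouse of each array, which pairs the treatments: the difference between mice 42 and 47 under vehicle correlated with that under rosiglitazone at r = 0.44, and that between mice 44 and 46 at 0.487.

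Named genes are Pparg, the 10 genes with the smallest p over 8 arrays above the median level, the 8 with the largest interaction per pattern and direction, the 2 lowest and 2 highest members of each of 33 functional lists (902 of 989 entries matched), and textbook PPAR targets; not all are described. Predicted gene models and genes said to be chosen after their values were seen lie outside the rule. Members, lists and named genes were chosen with earlier results of these data known. Alternatives were the mouse as a random or no block, centring, repeated quantile normalization, probe set filters, a signal-dependent prior and leaving out each array or mouse. These alternatives were also run for the responses in each genotype, which was chosen after seeing the data.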

Additional observations from a re-analysis of the deposited data

Results flagged for a closer look

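In 12 of the genes described, every paired mouse of one genotype differed one way with the drug by at least 0.25 and every paired mouse of the other genotype differed the opposite way. The interaction over 8 arrays was 1.86 for Slc9a3, 1.79 for Guca2a, 1.57 for Cyp2d26, 1.42 for Oit1, 1.27 for Tgfbi and 1.15 for Cyp4f14. It was 1.03 for Rrm2b, 1.01 for Dpep1 and 0.92 for Slc5a1, and -0.94 for Zcchc10, -0.65 for Slc29a2 and -0.59 for Pkhd1. Each was tested in the limma fit over all probe sets, and the adjusted p was 0.502 or higher in each. These genes were chosen by these same differences.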

How the results depend on the processing

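The 0 calls for the interaction held under every alternative run except the signal-dependent prior over 8 arrays, which called 10 probe sets. That prior called 34 and 2 for the responses in wild type and knockout over 8 arrays. With a mouse left out these 8-array counts ran from 0 to 22 and from 0 to 8. The count at an unadjusted p under 0.05 over 10 arrays was 187 among probe sets above the median, 988 over all probe sets, and from 280 to 1175 with an array left out. Over 8 arrays it was 741 among probe sets above the median and from 459 to 2757 with a mouse left out.

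With the mouse as a replicate block, the pairing moved the 10-array count at that limit from 536 to 1147 as a random and 1175 as a fixed block, and the knockout response gained 1 call with the random block. Without the replicate block the 8-array count was 443. The random block turned the 10-array interaction of Cpt1a to -0.014, and the fixed block gave its 8-array value, -0.12. The fixed block put the list medians of goblet genes at -0.01, oxidative phosphorylation at -0.004, defence at -0.018 and xenobiotic metabolism at 0.021, from 0.27, 0.11, 0.25 and -0.07 without it. It changed no other call.

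With limits of 0.4 and 0.2, the pattern counts became 31 and 37 for the opposite responses with wild type higher and lower, 13 for wild type only lower, 28 and 30 for knockout only higher and lower, and 3 for shared lower. Mice of a genotype then moved together in 170 wild-type and 206 knockout genes and apart in 53 and 278. With limits of 0.8 and 0.4 the opposite counts were 2 and 4, wild type only 8 and 4, knockout only 1 and 0, and shared lower 0, with 24 and 6 genes together and 0 and 6 apart. Among genes above the median level they were 3 and 13, 8 and 3, 7 and 4, and 0, with 46 and 31 together and 4 and 23 apart. Centring the arrays gave 7 knockout-only lower genes and 20 wild-type genes apart.

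Over 10 arrays, leaving out 1 array turned the sign of 9 of the 58 genes followed. Their values ran from -0.19 to 0.51 for Pparg, -0.12 to 1.35 for Tmigd1, -0.30 to 0.69 for Krt20, -0.14 to 0.54 for Taf11 and -0.54 to 0.13 for Cbs. They ran from -1.41 to 0.11 for Angptl4, -0.13 to 0.21 for Cpt1a, -0.97 to 0.35 for Cyp2c55 and -1.09 to 1.05 for Ascl2. List medians then ran from -0.185 to -0.025 for PPAR targets, -0.15 to -0.003 for droplet genes, -0.351 to 0.022 for glycolysis, 0.12 to 0.39 for defence and -0.17 to 0.002 for xenobiotic metabolism. The goblet median was 0.89 among probe sets above the median. The cause was not tested. Over 8 arrays none of the 58 genes changed sign under any alternative run, but many of these alternatives could not turn a sign. The block, the prior and the probe set filters leave an 8-array value as it is. Pattern genes have both wild-type mice on the same side of both knockout mice, so leaving out a mouse cannot turn them.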

Other observations

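Some lists had a larger shift over 10 arrays than over 8, which comes from mice 45 and 48 alone. Of 33 glycolysis and hypoxia genes, 30 had a negative interaction over 10 arrays (median -0.22) and 19 over 8 (median -0.04). Of 56 oxidative phosphorylation genes, 44 were positive over 10 arrays (median 0.11) and 26 over 8. Over all genes 43.9% were positive over 10 arrays and 49.0% over 8. Ndrg1, a hypoxia-response gene, read 6.80 in mouse 45 and from 8.46 to 9.10 in the other knockout arrays. Muc2 read 8.47 in mouse 45 and from 3.71 to 6.59 in the others, and Pigr 9.82 against 6.03 to 8.25.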
